A study of Mus musculus with 4 samples.

Results

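The genes described here encode the proteins that carry out and regulate pre-mRNA splicing in the mouse blastocyst. They were all protein-coding genes of the deposited count table whose symbols belong to the Srsf, Hnrnp, Snrp, Sf3a and Sf3b, Prpf, U2af or Mbnl1 to Mbnl3 families. The rule gave 69 of 21470 genes (15379 of them protein-coding): 10 SR genes, 20 hnRNP genes, 12 snRNP genes, 9 SF3 genes, 13 PRPF genes, 2 U2AF genes and 3 Mbnl genes. Of these, 65 had enough counts to be tested. The others were Srsf12 with 1 count over all libraries, Hnrnph2 with 41, Snrpf with 12 and Prpf40b with 70.

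Polyadenylated RNA was counted in 4 groups of 5 libraries, all from wild-type embryos of B6D2F1 fathers and ICR mothers. Each embryo was cut into an embryonic part, the inner cell mass (ICM), and an extra-embryonic part, the trophectoderm (TE), with a system named HTlasr in the design text, and the groups are these tissues at E4 and at D10. The title contrasts tissues before and after diapause, a reversible arrest of the blastocyst ahead of implantation. In the deposited list of barcodes E4 is given as before and D10 as day 6, whereas the protocol calls all dissected embryos diapause embryos, so the sources conflict on E4. Each group was amplified as 1 pool, and an effect of the pool cannot be told apart from one of the group. The sources do not say how many embryos went into a library. The p-values measure only the spread between these libraries. In each group the 5 libraries came from 5 different litters, so this spread holds litter differences and may hold technical ones. ICM and TE libraries with the same replicate number came from the same litter. Replicates 1 and 2 at E4 came from litters with a zona pellucida, and all other libraries from litters without.

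Splicing is carried out by the spliceosome, which is assembled on each intron from small nuclear ribonucleoprotein particles (snRNPs). The Snrp genes encode the shared ring of Sm proteins and the proteins particular to the U1 and U2 particles, the Sf3 genes encode U2 proteins that hold the branch site, the U2af genes the factor that reads the end of the intron, and most Prpf genes the proteins of the U4/U6.U5 particle and of the steps that follow. SR proteins (Srsf) bind exons and usually promote their inclusion, hnRNP proteins coat the nascent transcript and often oppose them, and the muscleblind proteins (Mbnl) are zinc-finger regulators, of which Mbnl1 and Mbnl2 are known for turning splicing patterns of pluripotent cells into those of differentiated cells. Counts at the 3′ end of transcripts measure how much mRNA of these genes was present, and do not resolve which isoforms were spliced.

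The libraries held 144276 to 1010354 counts, and the 69 genes took 0.829% to 1.78% of them. Values are counts scaled to library size with TMM factors (CPM), differences are log2 fold changes ± standard error (SE), and adjusted p-values come from the quasi-likelihood test of edgeR over 6943 genes, with calls at an adjusted p under 0.05. The labelled tissues were checked with 12 markers each. Summed trophectoderm markers had a median of 2700 CPM in the E4 ICM (2390 to 3200) and 7980 in the E4 TE (7540 to 8690), and 4280 in the D10 ICM (3720 to 5970) and 9150 in the D10 TE (8030 to 10700). Summed epiblast markers had medians of 2520 and 161 CPM in the E4 ICM and TE, and of 1350 and 120 in the D10 ICM and TE, with Esrrb and Fgf4 at 0 in the E4 TE and Fgf4, Gdf3, Sox2 and Tdgf1 at 0 in the D10 TE. Summed primitive endoderm markers had medians of 2870 and 1440 CPM in the E4 ICM and TE, and 9580 and 3260 in the D10 ICM and TE. Of that list, Dab2 had the highest level in the TE and went against it, with means of 951 CPM in the E4 TE and 2600 in the D10 TE against 356 and 1690 in the ICM. At D10, Elf5 and Zfp42 also went against their lists. Elf5, a trophectoderm marker, averaged 161 CPM in the D10 ICM and 69 in the D10 TE. Zfp42, an epiblast marker, averaged 55.5 CPM in the D10 ICM and 69.2 in the D10 TE. These lineage markers moved with tissue and time, and their part in the results below was not tested. Markers of the uterus and blood (8 of 10 in the table) summed to at most 142 CPM in any library. In such bulk tissue, fewer cells of a type and less RNA per cell cannot be told apart.

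Between the tissues, Mbnl3 lay opposite to the members of the other classes that passed. It averaged 22.9 ± 10.2 CPM (SD, n = 5) in the E4 ICM and 195.9 ± 38.2 (n = 5) in the E4 TE, and 33.9 ± 14.6 (n = 5) in the D10 ICM and 209.1 ± 53.7 (n = 5) in the D10 TE. In contrast, 18 members of the other classes were higher in the ICM at E4 and 10 at D10. The upstream sequences of Mbnl3 and Mbnl2, and of Snrpa, which had the smallest adjusted p among the genes higher in the E4 ICM, are shown because Mbnl3 and Snrpa had the smallest adjusted p in each direction between the tissues at E4 and Mbnl2 was the 1 member that rose over time in the ICM. They are the 250 bases before a RefSeq start of each gene (GRCm38.p6), 5′ to 3′ on the gene's strand, with matches to any of 6 searched motifs in capitals. Mbnl3 is shown at chrX:51205991-51206240 (minus strand), which lies within the longer GENCODE gene but in none of its exons, Mbnl2 at chr14:120275419-120275668 (plus strand) and Snrpa at chr7:27196272-27196521 (minus strand).
Mbnl3: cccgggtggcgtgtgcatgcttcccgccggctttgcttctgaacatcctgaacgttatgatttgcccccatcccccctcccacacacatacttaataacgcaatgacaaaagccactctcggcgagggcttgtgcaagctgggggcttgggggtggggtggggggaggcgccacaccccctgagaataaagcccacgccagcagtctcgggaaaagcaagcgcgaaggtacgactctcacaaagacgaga
Mbnl2: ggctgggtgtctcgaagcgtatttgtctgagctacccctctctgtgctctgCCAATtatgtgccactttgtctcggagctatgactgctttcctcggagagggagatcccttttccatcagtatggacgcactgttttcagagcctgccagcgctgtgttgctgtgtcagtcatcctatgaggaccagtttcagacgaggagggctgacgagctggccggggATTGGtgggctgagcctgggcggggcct
Snrpa: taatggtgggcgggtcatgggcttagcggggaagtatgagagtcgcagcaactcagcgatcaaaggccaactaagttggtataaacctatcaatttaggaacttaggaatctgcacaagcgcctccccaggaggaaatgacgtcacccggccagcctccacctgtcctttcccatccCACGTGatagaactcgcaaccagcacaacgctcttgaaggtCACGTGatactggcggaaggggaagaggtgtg
Both strands were searched, and none of the motifs contains another. Mbnl3 held 0 matches, Mbnl2 held 2 CCAAT boxes, and Snrpa held 2 E-boxes, 32 and 73 bases before the start. A second RefSeq start of Snrpa, not shown, had 1 E-box in its window. Of the 69 genes, 60 matched the RefSeq table, and shares are given over these 60 and over all 27025 genes of the table. A gene was counted when any of its windows held the motif. Of 80 member windows, 56 were followed by 20 bases found in the first 200 bases of a GENCODE transcript of the gene. The ETS factor motif, CCGGAAG, was held by 17 members (28.3%) and by 7.83% of all genes. The E-box of MYC, spelled CACGTG, was held by 13.3% of the members and 6.86% of all genes. For the CCAAT box, searched as CCAAT, the shares were 51.7% and 37.5%. The motif of NRF1, GCGCATGC, had 5.0% and 2.56%. The TEAD motif, GGAATG, was held by 10.0% and 14.4%, and the GATA motif, AGATAA, by 5.0% and 11.4%. These shares describe letters in the windows and say nothing of binding.

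Mbnl3 (ENSMUSG00000036109, GRCm38 chromosome X, 51117269 to 51206532, minus strand) was a gene of the TE at both times. In replicates 1 to 5 it stood at 12.7, 31.3, 11.6, 33.1 and 25.8 CPM in the E4 ICM and at 196, 195, 195, 251 and 143 CPM in the E4 TE. At D10 it stood at 19.0, 36.3, 44.3, 18.9 and 51.1 CPM in the ICM and at 139, 214, 245, 175 and 273 CPM in the TE. Every TE library lay above every ICM library at its time. The ICM minus TE difference was -3.04 ± 0.31 at E4 (adjusted p = 1.18e-07) and -2.71 ± 0.29 at D10 (adjusted p = 2.09e-07), and both calls held under all alternatives run. Between E4 and D10, Mbnl3 did not pass in the ICM (0.40 ± 0.36, adjusted p = 0.453) or in the TE (0.07 ± 0.25, adjusted p = 0.888), and its groups overlapped.

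Mbnl2 (ENSMUSG00000022139, chromosome 14, 120275669 to 120431697, plus strand) separated the tissues at E4 only in part. It stood at 69.7, 28.7, 34.7, 51.7 and 8.60 CPM in the E4 ICM and at 86.3, 95.4, 73.0, 87.7 and 57.2 CPM in the E4 TE. In the D10 ICM it stood at 85.6, 120.3, 72.0, 50.4 and 65.0 CPM, and in the D10 TE at 76.7, 132.5, 30.1, 110.1 and 84.7 CPM. The E4 ICM was the lowest group, but its highest library lay above the lowest library of each other group. Mbnl2 rose from E4 to D10 in the ICM by 1.06 ± 0.38 (adjusted p = 0.042), the only member that did so, and at E4 its level in the ICM was below that in the TE (-1.09 ± 0.38, adjusted p = 0.031). Neither call was stable. The first was lost without any of replicates 2, 3 or 5 of the E4 ICM or 1, 2 or 3 of the D10 ICM (adjusted p up to 0.157) and the second without replicates 2, 3 or 5 of the E4 ICM or 2 or 4 of the E4 TE (up to 0.07). Scaling by library totals alone also ended both (adjusted p = 0.111 and 0.0735), as did the use of the 3 E4 litters without a zona (adjusted p = 0.0752 and 0.0999). At D10 the tissues did not differ past the threshold (-0.14 ± 0.33, adjusted p = 0.825).

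Mbnl1 (ENSMUSG00000027763, chromosome 3, 60472830 to 60629750, plus strand) was near the detection limit. Its pooled counts were 5 in the E4 ICM, 27 in the E4 TE, 25 in the D10 ICM and 73 in the D10 TE. It stood at 0, 2.61, 4.63, 4.13 and 0 CPM in the E4 ICM, at 0, 24.9, 12.2, 31.9 and 0 in the E4 TE, at 9.51, 13.2, 0, 8.40 and 32.5 in the D10 ICM, and at 38.3, 22.4, 26.1, 21.0 and 43.7 in the D10 TE. Where no read was counted, up to 3 counts remain possible, which is 20.8 CPM in the shallowest library. At E4 Mbnl1 was lower in the ICM (-2.41 ± 0.78, adjusted p = 0.0204), a call lost without replicate 4 of the E4 TE (-1.84, adjusted p = 0.13), with limma voom (-1.87, adjusted p = 0.0824) and with the 3 litters without a zona (-2.36, adjusted p = 0.065). At D10 the difference of -1.28 ± 0.55 did not pass (adjusted p = 0.0891), and it did with litter as a block (-1.23 ± 0.44, adjusted p = 0.0448). The ICM and TE libraries overlapped at both times. Between E4 and D10, Mbnl1 did not pass in the ICM (1.96 ± 0.81, adjusted p = 0.0794) or in the TE (0.82 ± 0.53, adjusted p = 0.288).

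**Figure D1:**
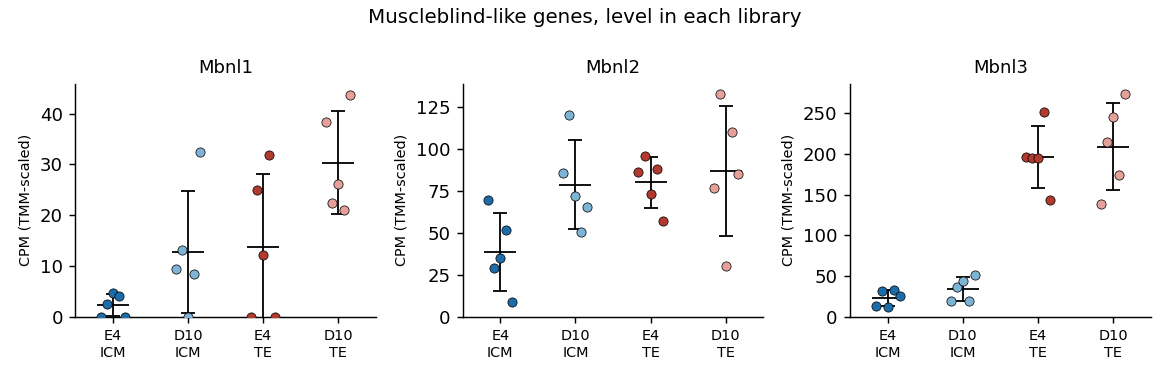
Level of Mbnl1, Mbnl2 and Mbnl3 in each library, in CPM scaled with TMM factors, for 4 groups of 5 libraries, with the mean as a long line and the SD as bars. Mbnl3 sits at 143 to 251 CPM in the E4 TE and at 139 to 273 CPM in the D10 TE, above all ICM libraries.

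Between the tissues at E4, proteins of the spliceosome and both SR and hnRNP regulators were among the members higher in the ICM. Of 65 tested members, 18 (27.7%) were higher in the ICM, beside 15.8% of all tested genes, and 3 (4.62%), the Mbnl genes, were lower, beside 15.4% of all. In either direction 31.2% of all genes were called. The median difference over the members was 0.38 and 56 of 65 were above 0, against a median of 0.03 over all genes tested. The 69 genes summed to 15850 ± 472 CPM (SD, n = 5) in the E4 ICM and 12180 ± 762 CPM (n = 5) in the E4 TE. The class medians were 0.44 for snRNP genes with 5 of 11 higher, 0.44 for SF3 genes with 3 of 9, 0.39 for PRPF genes with 3 of 12, 0.38 for SR genes with 2 of 9, 0.32 for hnRNP genes with 3 of 19, and 0.53 for U2AF genes with 2 of 2. In no class other than Mbnl was a member lower. The size of this count depended on settings. Scaling by library totals alone, which moves the median of all genes by 0.16, gave 26 higher members. Over all genes, 1400 of 6943 were then higher. The 3 litters without a zona at E4 gave 7 higher members. There 794 of all 7623 tested genes were higher, a share near that of the members.

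Among the snRNP genes, Snrpa, which binds the U1 RNA in the U1 particle, was highest in the E4 ICM (ENSMUSG00000061479, chromosome 7, 27187005 to 27196271, minus strand). It stood at 120.5, 185, 195, 184 and 198 CPM in the E4 ICM and at 51.8, 83.0, 85.2, 73.7 and 64.4 CPM in the E4 TE. Replicate 1 was the lowest of the E4 ICM and still above every TE library. The difference was 1.28 ± 0.25 (adjusted p = 0.000324). In the D10 ICM, Snrpa stood at 128, 129, 66.5, 161 and 60.4 CPM, split between 3 high and 2 low libraries, and in the D10 TE at 98.6, 83.6, 78.2, 111.8 and 68.3 CPM. The difference of the tissues at D10 was 0.36 ± 0.24 and did not pass (adjusted p = 0.285). The interaction (the D10 minus E4 change in the ICM minus that in the TE) was -0.92 ± 0.34 (adjusted p = 0.124), and -0.99 ± 0.29 with litter as a block, which passed (adjusted p = 0.0427).

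Snrpb, which encodes the SmB proteins of the Sm ring, was likewise highest in the E4 ICM. It stood at 609, 509, 558, 624 and 529 CPM in the E4 ICM, at 253, 386, 348, 257 and 279 CPM in the E4 TE, at 323, 386, 244, 456 and 204 CPM in the D10 ICM and at 283, 241, 221, 335 and 314 CPM in the D10 TE. All 5 libraries of the E4 ICM lay above all others. It was higher in the ICM at E4 by 0.89 ± 0.21 (adjusted p = 0.00182) and lower in the ICM at D10 than at E4 (-0.79 ± 0.20, adjusted p = 0.0067). The ring protein Snrpd2 was higher in the ICM at E4 by 0.91 ± 0.21 (adjusted p = 0.00159), at 283.2 ± 27.3 CPM (SD, n = 5) against 149.7 ± 13.4 (n = 5). Snrpg, the snRNP gene with the most counts, was higher by 0.63 ± 0.20 (adjusted p = 0.0195) and Snrpd3 by 0.57 (adjusted p = 0.0459). Snrpd3 lost its call at E4 when any of 18 single libraries was left out (adjusted p up to 0.192), and Snrpg when any of 6 was (up to 0.0745). The 18 for Snrpd3 included D10 libraries, which share the fit but are not part of this comparison.

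The remaining genes higher in the E4 ICM included those for proteins of the U4/U6 and U2 particles and of U2AF. Prpf8, of the U5 particle, did not pass there. Prpf4, a protein of the U4/U6 particle (ENSMUSG00000066148, chromosome 4, 62408797 to 62426990, plus strand), stood at 63.4, 70.5, 118, 91.0 and 90.3 CPM in the E4 ICM and at 17.3, 37.3, 34.1, 41.8 and 21.5 CPM in the E4 TE. These groups did not overlap, and the difference was 1.43 ± 0.28 (adjusted p = 0.000328). Prpf3, its partner in that particle, stood at 63.4, 33.9, 64.9, 28.9 and 51.6 CPM in the E4 ICM and at 11.5, 8.29, 26.8, 21.9 and 7.15 CPM in the E4 TE. It was higher in the ICM by 1.42 ± 0.39 (adjusted p = 0.00659), and not past the threshold with the 3 litters without a zona (1.13, adjusted p = 0.0876). Prpf31, also of U4/U6, was higher by 0.70 (adjusted p = 0.0438), a call lost without any of 17 single libraries (up to 0.152). Of the U2 proteins, Sf3a3 was higher by 0.69 ± 0.21 (adjusted p = 0.0129), Sf3b3 by 0.82 (0.0291) and Sf3a2 by 0.54 (0.0279), the last pair each lost without any of 7 libraries (up to 0.0965 and 0.114). U2af2, the larger subunit of U2AF, was higher by 0.54 (adjusted p = 0.0278) and U2af1, the smaller, by 0.53 (adjusted p = 0.0485). Leaving out any of 7 libraries ended the call of U2af2 (up to 0.0966), and any of 19 that of U2af1 (up to 0.184). The libraries counted for Prpf31 and U2af1 included those of D10, outside this comparison.

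Of the SR genes, Srsf10, an SR-like protein that represses splicing when dephosphorylated, was higher in the ICM at both times (ENSMUSG00000028676, chromosome 4, 135855747 to 135869908, plus strand). It stood at 234.6, 178, 199, 168 and 198 CPM in the E4 ICM and at 104, 108, 131, 89.7 and 107 CPM in the E4 TE. At D10 it stood at 143, 183, 144, 153 and 209 CPM in the ICM and at 109.5, 124, 80.2, 114 and 101 CPM in the TE. At each time all ICM libraries lay above all TE libraries. The difference was 0.84 ± 0.19 at E4 (adjusted p = 0.00136) and 0.65 ± 0.18 at D10 (adjusted p = 0.00874). Srsf9 was higher at E4 by 0.90 ± 0.23 (adjusted p = 0.00456). Srsf3, the SR gene with the most counts, did not pass in any of the comparisons, at 719 ± 114 CPM (SD, n = 5) in the E4 ICM and 550.3 ± 80.9 (n = 5) in the E4 TE (0.38 ± 0.22, adjusted p = 0.191).

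Of the hnRNP genes, Hnrnpf, which binds runs of G, was higher in the E4 ICM by 0.93 ± 0.24 (adjusted p = 0.00385), Hnrnpc, a packaging protein that binds runs of U, by 0.69 ± 0.20 (adjusted p = 0.00974), and Hnrnpd by 0.61 (adjusted p = 0.0272). Hnrnpc was the hnRNP gene with the most counts, at 1267 ± 336 CPM (SD, n = 5) in the E4 ICM and 780.6 ± 57.5 (n = 5) in the E4 TE. Its call was lost without replicate 5 of the E4 ICM, its highest library (0.53, adjusted p = 0.0563). Hnrnpd lost its call without any of 5 libraries (up to 0.111). With litter as a block, 3 more members were higher in the ICM at E4: Hnrnpa2b1 (0.54, adjusted p = 0.0267), Hnrnpa1 (0.64, adjusted p = 0.047) and Sf3b5 (0.74, adjusted p = 0.0161). Over all genes, the block called 1200 higher there, beside 1094 without it.

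**Figure D2:**
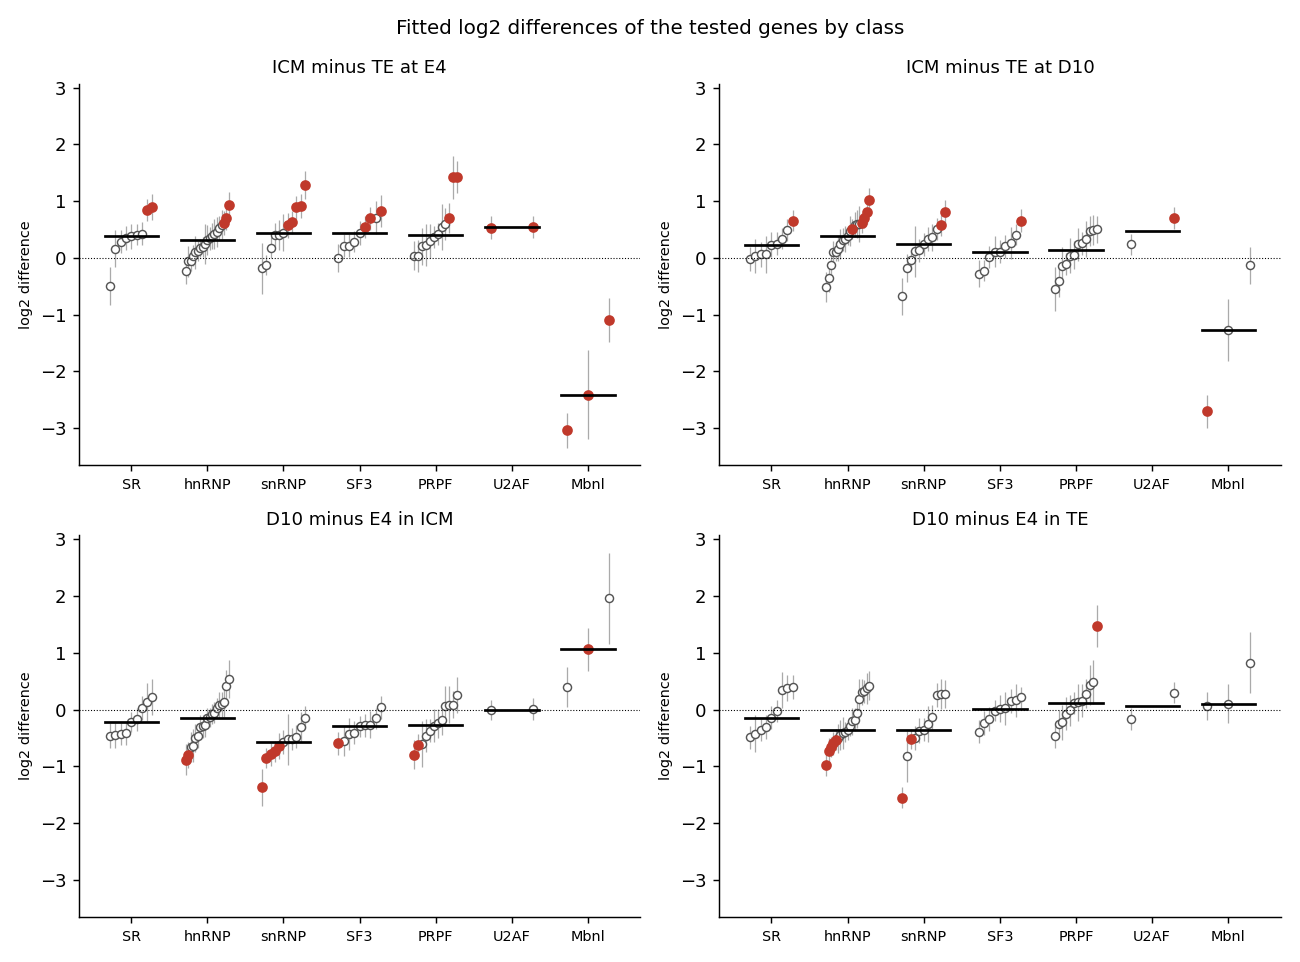
Log2 difference of each tested member in the 4 comparisons of tissue or time, by class. Filled points passed an adjusted p of 0.05, open points did not, thin bars are the SE and long lines the class medians. At E4 the 3 Mbnl genes lie below 0 and 56 of 65 members above it.

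At D10, 10 of the 65 members (15.4%) were higher in the ICM, a share near the 12.9% of all tested genes. Mbnl3 alone (1.54%) was lower, beside 12.6% (25.5% of all genes in either direction). Of the 10, 5 were hnRNP genes, the largest class with 19 of the 65. The median over the members was 0.24, against 0.01 over all genes tested. The hnRNP genes had 5 of 19 higher and a median of 0.39, the snRNP genes 2 of 11 with 0.23, the SR genes 1 of 9 with 0.23, the SF3 genes 1 of 9 with 0.11, the PRPF genes 0 of 12 with 0.14 and the U2AF genes 1 of 2. Whether a class differed more at one time than at the other was tested gene by gene only, as the interaction, where 0 of 65 members passed.

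Hnrnpa3 (ENSMUSG00000059005, chromosome 2, 75659261 to 75669407, plus strand), Hnrnpa2b1 and Hnrnpl were the hnRNP genes with the smallest adjusted p at D10. Hnrnpa3 and Hnrnpa2b1 belong to the hnRNP A/B family, which binds exonic silencers, and Hnrnpl binds CA repeats. Hnrnpa3 stood at 242.4, 242.3, 188, 165 and 139 CPM in the D10 ICM and at 105.9, 124, 90.3, 64.6 and 98.3 CPM in the D10 TE. Hnrnpl stood at 299.5, 259, 227, 264 and 395 CPM in the D10 ICM and at 166, 196, 195, 176 and 150.2 CPM in the D10 TE. Both genes had every ICM library above every TE library. The differences were 1.02 ± 0.20 for Hnrnpa3 (adjusted p = 0.000454) and 0.70 ± 0.17 for Hnrnpl (adjusted p = 0.00368).

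Hnrnpa2b1 stood at 974, 1223, 648, 1277 and 655 CPM in the D10 ICM and at 637, 518, 536, 538 and 516 CPM in the D10 TE. Replicates 3 and 5 of the ICM lay only just above the highest TE library, and the groups did not overlap (0.81 ± 0.21, adjusted p = 0.00448). Hnrnpm (0.61 ± 0.18, adjusted p = 0.012) and Hnrnpa0 (0.51 ± 0.18, adjusted p = 0.0397) were the other hnRNP genes higher in the D10 ICM. Hnrnpm lost its call without replicate 1 of the D10 ICM (0.47, adjusted p = 0.0541), and Hnrnpa0 without any of 9 libraries (up to 0.0885). The 9 included replicate 4 of the E4 ICM, outside this comparison. Outside the class, Snrpd3 (0.80 ± 0.21, adjusted p = 0.00529), U2af1 (0.70 ± 0.20, adjusted p = 0.00919), Sf3a3 (0.65 ± 0.20, adjusted p = 0.0184) and Snrpe (0.57 ± 0.18, adjusted p = 0.0231) were higher in the D10 ICM. Sf3a3 lost its call without replicate 4 of the D10 ICM (adjusted p = 0.0504), and Snrpe without replicate 3 of the D10 ICM or of the D10 TE (up to 0.0698).

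From E4 to D10 the members that passed were mostly lower. In the ICM, 10 of 65 (15.4%) were lower, beside 9.97% of all tested genes, and Mbnl2 alone (1.54%) was higher, beside 13.7% (23.7% of all genes in either direction). The median over the members was -0.29, against 0 over all genes tested. The snRNP genes had 5 of 11 lower, a median of -0.57 and 0 of 11 above 0. The PRPF genes had 2 of 12 lower (median -0.26), the hnRNP genes 2 of 19 (median -0.15), the SF3 genes 1 of 9 (median -0.30), and the SR genes 0 of 9 (median -0.22). The E4 ICM libraries enter this comparison and that of the tissues at E4. The calls of Mbnl2, Snrpa, Snrpb, Hnrnpf and Prpf4 in both are thus not independent observations.

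**Figure D3:**
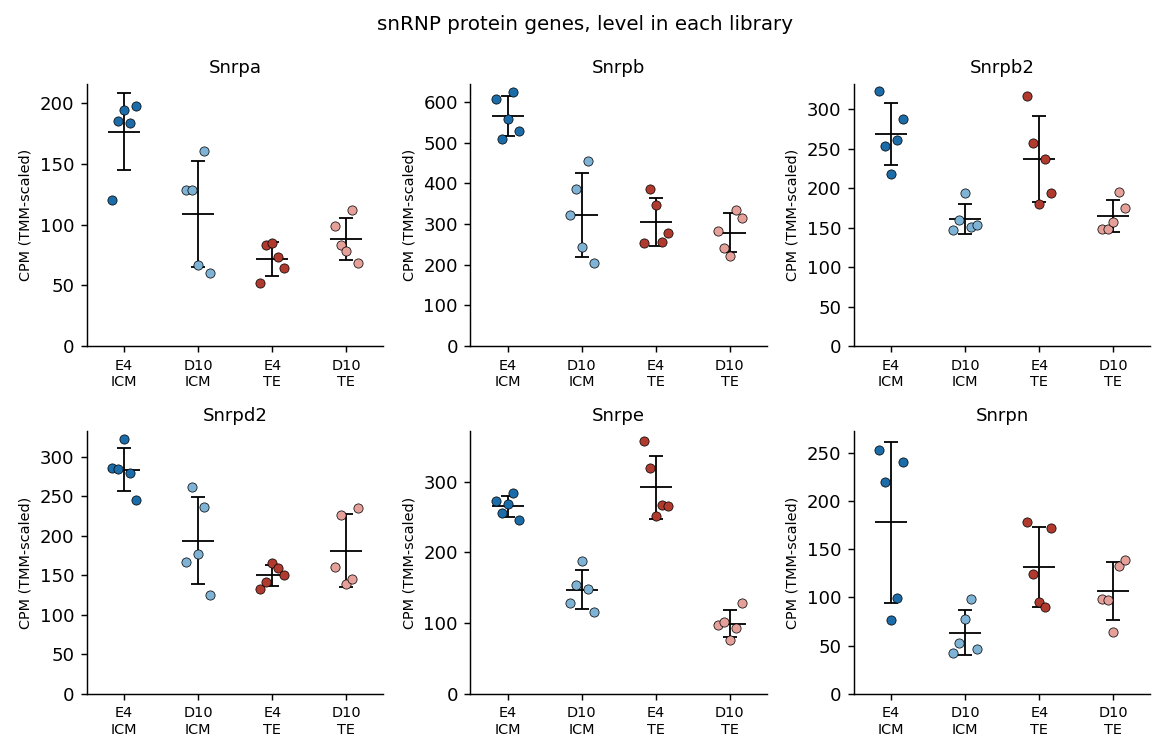
Level of 6 snRNP protein genes in each library, in CPM scaled with TMM factors, with the mean as a long line and the SD as bars (n = 5 in each group). Snrpe is lower at D10 than at E4 in both tissues, without overlap, and Snrpn spreads from 76.4 to 253.6 CPM within the E4 ICM.

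Snrpe, the SmE protein of the Sm ring (ENSMUSG00000090553, chromosome 1, 133603871 to 133610291, minus strand), was lower at D10 in both tissues. It stood at 273, 256, 269, 283 and 245 CPM in the E4 ICM and at 128, 153, 188, 148 and 116 CPM in the D10 ICM. In the TE it stood at 357, 319, 251, 267 and 265 CPM at E4 and at 96.7, 102, 76.2, 92.6 and 128 CPM at D10. In neither tissue did the times overlap. Snrpe fell by 0.85 ± 0.18 in the ICM on the log2 scale (adjusted p = 0.00127) and by 1.55 ± 0.18 in the TE (adjusted p = 9.73e-07). The difference between these falls, 0.70 ± 0.25, did not pass (adjusted p = 0.113). Its last 500 bases match 2 other annotated genes over at least 1 read, so its counts are uncertain.

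Snrpb2, the U2B″ protein of the U2 particle, stood at 323, 253, 218, 261 and 288 CPM in the E4 ICM and at 147, 159.9, 194, 151 and 153 CPM in the D10 ICM. These groups did not overlap, and Snrpb2 fell by 0.73 ± 0.18 (adjusted p = 0.00512). In the TE it stood at 316.5, 257, 180.1, 237 and 193 CPM at E4 and at 148, 149, 156.5, 196 and 175 CPM at D10, where the times overlapped. Its fall of 0.52 ± 0.18 in the TE (adjusted p = 0.0422) was lost without any of replicates 1, 2 or 4 of the E4 TE or 1, 2 or 3 of the D10 TE (adjusted p up to 0.115).

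Snrpn, the SmN protein from an imprinted locus expressed from the paternal allele (ENSMUSG00000102252, chromosome 7, 59982495 to 60140219, minus strand), stood at 253.6, 219, 76.4, 99.3 and 241 CPM in the E4 ICM and at 42.8, 52.7, 77.5, 98.6 and 46.4 CPM in the D10 ICM. Its E4 libraries fell into a high set (replicates 1, 2 and 5) and a low set (replicates 3 and 4) that overlapped the D10 libraries. Replicates 3 and 4, from litters M and N, were also the lowest of the E4 TE, which stood at 178, 124, 94.9, 89.7 and 172 CPM. Snrpn fell by 1.37 ± 0.33 in the ICM (adjusted p = 0.00373), a call that the 3 litters without a zona alone did not give (-0.98, adjusted p = 0.0769). In the TE it did not pass (-0.25 ± 0.32, adjusted p = 0.621). At D10 it stood at 98.6, 97.9, 64.2, 133 and 139 CPM in the TE, and the difference between the tissues of -0.68 ± 0.33 did not pass (adjusted p = 0.136) but did with litter as a block (-0.73 ± 0.25, adjusted p = 0.0319). A second annotated gene on the same strand overlaps the last 500 bases of Snrpn, in whole or in part.

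The other members that fell in the ICM were Hnrnpf by 0.79 ± 0.23 (adjusted p = 0.0132), Hnrnph3 by 0.89 ± 0.27 (adjusted p = 0.0196), Prpf8, the core protein of the U5 particle, by 0.63 ± 0.20 (adjusted p = 0.0236), Prpf4 by 0.80 ± 0.26 (adjusted p = 0.0255), Sf3b6, which touches the branch site, by 0.59 ± 0.20 (adjusted p = 0.0319), and Snrpa by 0.64 ± 0.23 (adjusted p = 0.0457). Each of these calls was lost when 1 library was left out. Hnrnpf lost it without replicate 1 of the E4 ICM (-0.63, adjusted p = 0.0536) and Hnrnph3 without replicate 4 of the E4 ICM or of the D10 ICM (up to 0.0618). The number of such libraries was 4 for Prpf8 (up to 0.107) and 4 for Prpf4 (up to 0.102). It was 8 for Sf3b6 (up to 0.0922) and 18 for Snrpa (up to 0.136). Those for Snrpa included TE libraries, outside this comparison. Prpf4 stood at 33.3, 49.4, 44.3, 56.7 and 65.0 CPM in the D10 ICM, and its highest library there exceeded the lowest of the E4 ICM at 63.4 CPM.

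In the TE, 7 of 65 members (10.8%) were lower at D10 than at E4, beside 9.89% of all tested genes, and Prpf3 alone (1.54%) was higher, beside 11.9% (21.8% of all genes in either direction). The share of lower members is thus near that of all genes. The median over the members was -0.13, against 0.02 over all genes. The hnRNP genes had 5 of 19 lower and a median of -0.36, the snRNP genes 2 of 11 lower and a median of -0.36, and the SR, SF3, PRPF and U2AF genes had 0 lower with medians of -0.14, 0.01, 0.12 and 0.06. Beside Snrpe and Snrpb2, the genes were Hnrnpa3, Hnrnpl, Hnrnpul1, Hnrnpa0 and Hnrnpa2b1. The D10 TE libraries enter this comparison and that of the tissues at D10. Snrpe, Hnrnpa3, Hnrnpl, Hnrnpa0 and Hnrnpa2b1 were called in both, and those calls are not independent observations. The same holds for Prpf3, whose calls here and between the tissues at E4 share the E4 TE libraries.

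Hnrnpa3 stood at 219, 224, 153, 189 and 165 CPM in the E4 TE, above all 5 libraries of the D10 TE given above, and fell by 0.97 ± 0.21 (adjusted p = 0.00119). Hnrnpl stood at 299.2, 307, 292, 239 and 265 CPM in the E4 TE, also without overlap with the D10 TE, and fell by 0.66 ± 0.18 (adjusted p = 0.00776), or by 0.61 with the 3 litters without a zona (adjusted p = 0.0566). In the ICM, neither passed between the times: Hnrnpa3 had -0.30 ± 0.20 (adjusted p = 0.299) and Hnrnpl -0.08 ± 0.17 (adjusted p = 0.792). The differences between the tissues in these changes did not pass either (adjusted p = 0.185 for both). Hnrnpa3 matches 17 other annotated genes over at least 1 read, and its counts are uncertain.

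Hnrnpa2b1 stood at 823, 937, 550.1, 952 and 887 CPM in the E4 TE, with replicate 3 inside the range of the D10 TE, and fell by 0.59 ± 0.21 (adjusted p = 0.0399), a call lost without any of 8 libraries (up to 0.086). Hnrnpul1 fell by 0.72 ± 0.23 (adjusted p = 0.0226), lost without replicate 2 or 5 of the E4 TE (up to 0.0537), and Hnrnpa0 by 0.53 ± 0.18 (adjusted p = 0.0385), lost without any of 6 libraries (up to 0.0939). Prpf3 (ENSMUSG00000015748, chromosome 3, 95830124 to 95855885, minus strand) stood at 58.4, 38.7, 76.2, 31.4 and 38.2 CPM in the D10 TE, above all 5 libraries of the E4 TE. It rose by 1.47 ± 0.37 (adjusted p = 0.00553), or by 1.16 with the 3 litters without a zona (adjusted p = 0.0673). Its E4 TE libraries held 1 to 11 counts each. In the ICM, Prpf3 had 0.08 ± 0.33 (adjusted p = 0.886), and the difference between the tissues in its change was -1.38 ± 0.50 (adjusted p = 0.11), the smallest adjusted p of the interaction over the members.

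**Figure D4:**
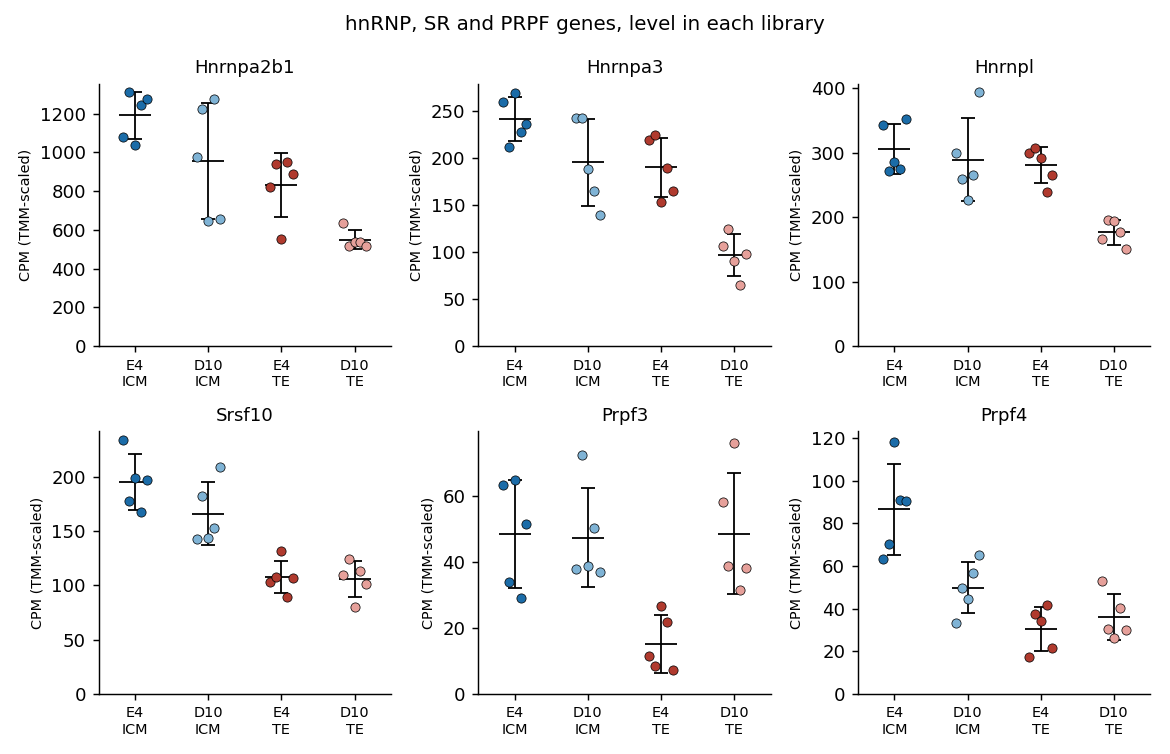
Level of 3 hnRNP genes, Srsf10, Prpf3 and Prpf4 in each library, in CPM scaled with TMM factors, with the mean as a long line and the SD as bars (n = 5 in each group). Hnrnpa3 and Hnrnpl are lowest in the D10 TE, and Prpf3 in the E4 TE at 7.15 to 26.8 CPM.

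For the interaction, 0 of 65 members passed in either direction, beside 3.15% of all tested genes higher and 1.83% lower (4.98% in either direction). At an unadjusted p under 0.05 there were 13 members (4 higher, 9 lower), a count without the share of all genes beside it. DESeq2 and limma voom also called 0 members. Over all genes, DESeq2 called 281 higher and 142 lower, and voom 205 and 126. The median over the members was -0.15, against -0.02 over all genes, with class medians of -0.12 for SR, 0.05 for hnRNP, -0.22 for snRNP and 0.96 for Mbnl genes. The data therefore give no member whose change over time was called different between ICM and TE without the litter block, and do not show that the changes were alike.

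As a description of the whole classes, their members' levels were also summed in each library. The snRNP genes summed to 2889 ± 169 CPM (SD, n = 5) in the E4 ICM, 1996 ± 109 in the E4 TE, 1827 ± 366 in the D10 ICM and 1547 ± 213 in the D10 TE. The hnRNP genes summed to 6510 ± 273, 5047 ± 465, 5724 ± 516.5 and 4354 ± 382 CPM in the same order of groups. For the SR genes the sums were 2771 ± 260.2, 2121 ± 199, 2261 ± 281 and 1913 ± 334 CPM. The Mbnl genes had 63.9 ± 22.4, 289.6 ± 61.9, 125 ± 35.3 and 326 ± 58.8 CPM. For the snRNP, hnRNP and SR genes all E4 ICM libraries lay above all E4 TE libraries, and for the Mbnl genes all lay below.

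**Figure D5:**
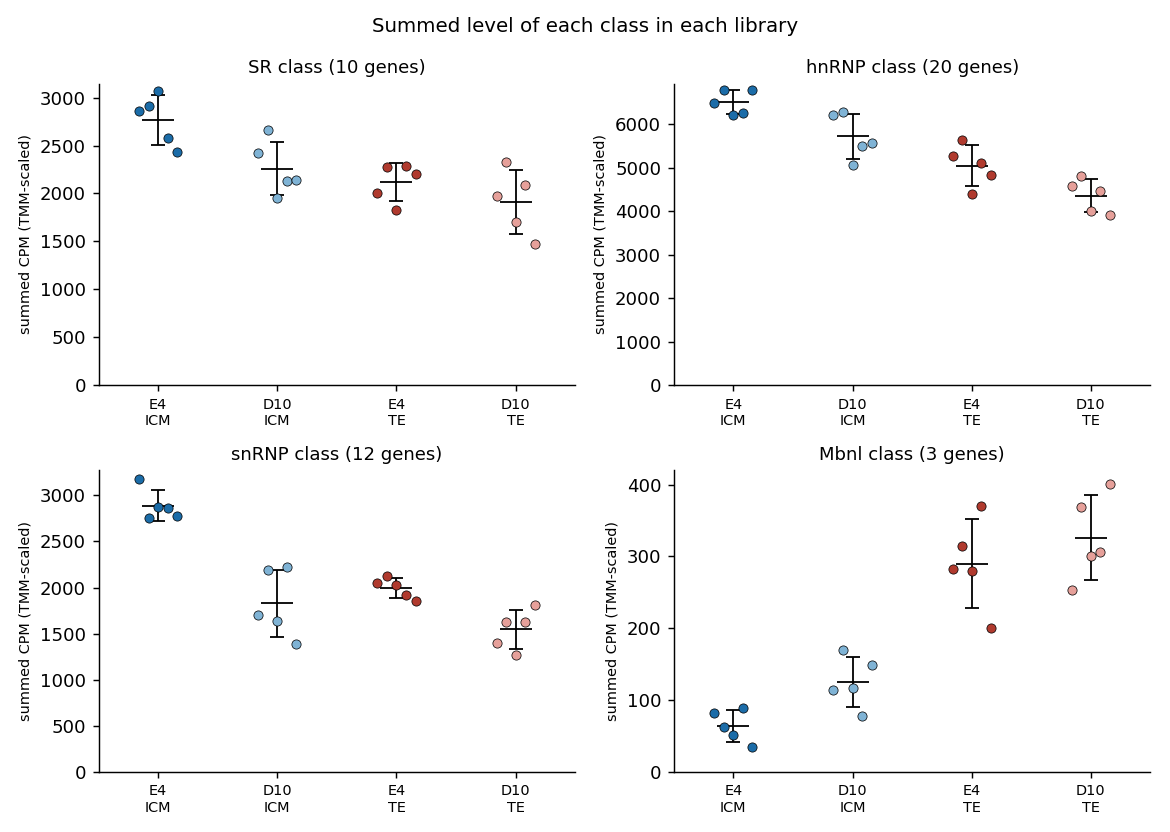
Summed level of the SR, hnRNP, snRNP and Mbnl genes in each library, in CPM scaled with TMM factors, with the mean as a long line and the SD as bars (n = 5 in each group). The snRNP sum is 2758 to 3176 CPM in the E4 ICM and at most 2220 CPM in any other library, and the Mbnl sum is highest in the TE at both times.

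Over the 5 comparisons, 33 of the 65 tested members passed at least once and 32 in none. The share of all tested genes that passed at least once was not counted. The number is therefore no result about the members. The members that passed in none included 7 of 9 SR genes (among them Srsf1, Srsf2 and Srsf3), 9 of 19 hnRNP genes (among them Hnrnpk and Hnrnpu), 8 of 12 PRPF genes, 5 of 9 SF3 genes and 3 of 11 snRNP genes (Snrpa1, Snrpc and Snrpd1). Their differences of tissue or time ran from -0.82 to 0.71. Sf3b1, which grips the branch site and was the SF3 gene with the most counts, stood at 451.1 ± 52.0 CPM (SD, n = 5) in the E4 ICM, 371.1 ± 41.9 in the E4 TE, 367 ± 42.3 in the D10 ICM and 428 ± 112.0 in the D10 TE.

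Other genes of the splicing machinery were taken from 8 lists of 155 genes, of which 137 were tested. At E4, 31 were higher in the ICM (22.6%, beside 15.8% of all tested genes) and 6 lower (4.38%, beside 15.4%), with a median of 0.31. The list of snRNP assembly factors had 9 of 15 higher and 1 lower (median 0.88). Its smallest adjusted p was that of Prmt5, which methylates Sm proteins before they are loaded (1.40 ± 0.24, adjusted p = 7.04e-05). The U5, NTC and step factors had 11 of 38 higher and 0 lower (median 0.42), and the exon junction and cap-binding factors 5 of 18 higher and 0 lower. The regulators of alternative splicing had 3 of 28 higher (10.7%) and 5 lower (17.9%), close to the shares of all genes, with Rbm47, an RNA-binding protein, lower in the ICM (-1.40 ± 0.23, adjusted p = 4.73e-05). Of the 12 spliceosomal helicases, 0 passed in any of the 5 comparisons.

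Between E4 and D10 in the ICM, 4 of these 137 genes were higher (2.92%, beside 13.7% of all tested genes) and 21 lower (15.3%, beside 9.97%), with a median of -0.25. The assembly factors had 6 of 15 lower and 1 higher, and Smn1, the core of the complex that loads the Sm ring, fell by 1.25 ± 0.28 (adjusted p = 0.00186). The U5, NTC and step factors had 8 of 38 lower, with Cdc5l at -1.05 ± 0.22 (adjusted p = 0.00101), and Qk, a regulator of alternative splicing, fell by 1.13 ± 0.22 (adjusted p = 0.000619). In the TE, 12 were higher (8.76%, beside 11.9% of all genes) and 16 lower (11.7%, beside 9.89%), both near the background. At D10, 13 were higher in the ICM (9.49%, beside 12.9%) and 10 lower (7.3%, beside 12.6%), both below it. Among the lower genes was Lsm10, a protein of the U7 particle that processes histone mRNA (-1.72 ± 0.23, adjusted p = 3.3e-06). It was the 1 lower gene in the list of LSm proteins, where 4 of 8 (50%) were higher and the median was 0.61. In the interaction, Srpk2, a kinase of SR proteins, was the 1 gene of the 137 that passed (-2.50 ± 0.45, adjusted p = 0.00124). Its mean level was 40.8 CPM in the E4 ICM, 18.4 in the E4 TE, 27.3 in the D10 ICM and 62.0 in the D10 TE (n = 5 each). Srpk2 rose in the TE by 1.86 ± 0.33 (adjusted p = 0.000177) and did not pass in the ICM (-0.64 ± 0.31, adjusted p = 0.141).

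In the annotation used here (GENCODE M21, GRCm38), a gene on the opposite strand overlaps the last 500 bases of 7 members, in whole or in part. Among them are Srsf2, Hnrnph3 and Prpf31, and whether counting used strand is not given. For 11 members the last 500 bases match another gene over at least 81 bases at 97% identity or more, among them Hnrnpa3, Hnrnpf, U2af1, Snrpe, Hnrnpc and Snrpd1. Reads of these genes could be split or lost between copies, and their values are uncertain in that respect.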

How the data were processed

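The authors deposited 1 table of raw counts, with 21470 genes in rows and 20 libraries in columns. Per the labels' protocols, lysates were reverse transcribed with barcoded oligo-dT primers and the replicates of a group mixed before PCR (BRB-seq), with a 10-base UMI and an insert of 81 bases. Per the submitters' processing notes, the tools were featureCounts 2.0.1, HISAT2 2.2.1, Trim Galore 0.6.7 and UMI-tools, and the builds GRCh38 and GRCm38, with no role stated. The sources used here do not give the annotation, the strand setting or whether UMIs were collapsed, so limits from a count of 0 cover counting error only. Litter and zona come from a barcode list deposited by the authors, and 0 sample columns of the table went unused.

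The test was edgeR 4.0.16 (quasi-likelihood, TMM, filterByExpr with a minimum count of 10, R 4.3.3) on 6943 genes in 1 fit of 4 groups, with Benjamini-Hochberg adjustment within each of 5 comparisons. DESeq2 1.42.0, voom of limma 3.58.1, other scalings and filters, thinning to the shallowest library, the litters without a zona, litter as a block and leaving out each library were alternatives. Data were simulated for ICM against TE at E4, over 6943 genes. In them the fit found 30% of the 2-fold and 94% of the 4-fold changes put in, with 4.62% of 130 calls false. Their counts were drawn independently with the spread trend of the same fit and held no litter correlation. The share of false calls thus rests on that model. Replicates all differed by more than counting noise (lowest chi-square per degree of freedom 2.58). Libraries of the same litter deviated together, the correlation of their deviations across genes averaging 0.177 at E4 (0.104 to 0.263, 5 pairs) and 0.169 at D10 (-0.0302 to 0.293). The barcode list thus pairs ICM with TE within a time. Litters differ between times.

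The members and lists were chosen with earlier results of these data known. Members that passed any comparison, all Mbnl genes and the member of each class with the highest mean CPM could be named, and the other names were added after their values were seen. Values per library are given for Mbnl genes and for the 3 members per direction with the smallest adjusted p in each comparison, and Snrpb was added after its values were seen. The other members are given by counts and ranges, and the level of 1 member that the rule names is not reported here. Promoters come from RefSeq (GRCm38.p6).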

Additional observations from a re-analysis of the deposited data

Results flagged for a closer look

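In 68 groups of 5 libraries (13 genes and 4 class sums in 4 groups), 4 held a library far from the others, with a gap to its neighbour above 0.71 of the group's range. Chance flags about 1 in 20 such groups. Snrpa stood at 120.5 CPM in replicate 1 of the E4 ICM, where the others stood at 184 to 198. The summed snRNP genes stood at 3176 CPM in that same library, the highest of its group, against 2760 to 2870 in the others. Snrpb2 stood at 193.9 CPM in replicate 3 of the D10 ICM (147 to 160 in the others), and Hnrnpa2b1 at 637.0 CPM in replicate 1 of the D10 TE (516 to 538 in the others). The change of Srpk2 over time differed between the tissues by -2.5 on the log2 scale in the test of the interaction, with mean levels falling from 40.8 to 27.3 CPM in the ICM, a change that did not pass, and rising from 18.4 to 62.0 CPM in the TE.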

How the results depend on the processing

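Of 51 calls of a member in a comparison, 8 held under every alternative run on them, 43 were lost in at least 1 and 0 reversed. The 8 were Mbnl3 between the tissues at both times, Snrpa and Snrpb at E4, Snrpe and Hnrnpa3 over time in the TE, and Hnrnpa3 and Hnrnpa2b1 at D10. Both calls of Hnrnpa3 rest in part on the same D10 TE libraries. Counts of members are given against those of the report, in the order ICM over time (1 higher, 10 lower), TE over time (1 and 7), tissues at E4 (18 and 3) and tissues at D10 (10 and 1). Scaling by library totals alone moved the median of all genes by -0.2 in the ICM over time, 0.16 at E4 and -0.15 in the interaction. It gave 0 higher and 21 lower in the ICM, 26 higher at E4, and a snRNP median of -0.76 in the ICM. Over all genes its split was 701 higher and 1111 lower in the ICM (951 and 692 in the report's fit), 1400 and 852 at E4 (1094 and 1071) and 178 and 196 in the interaction (219 and 127). With no filter on low counts, 4 were lower in the ICM, 2 lower in the TE, 8 higher at E4 and 3 higher at D10, where 20558 genes entered the adjustment. Over all genes these counts were 688, 763, 1233 and 1474. Thinned to the shallowest library (4013 genes), the counts were 0 and 2 in the ICM, 0 and 3 in the TE, 3 and 1 at E4 and 4 and 2 at D10. Over all genes they were 259 and 139, 203 and 178, 304 and 391, and 266 and 257 in that order. Prpf3, Mbnl1 and Hnrnph3 did not pass the filter after thinning and were not tested. The 0 higher in the TE is thus no failed test of Prpf3. The thinned snRNP median was -0.77 in the ICM. Those of the Mbnl genes, without Mbnl1, were -0.48 in the TE and 1.68 in the interaction. Without the E4 litters with a zona, the counts were 0 and 5 in the ICM, 0 and 3 in the TE and 7 and 1 at E4, with a snRNP median of -0.17 in the TE. Over all 7623 genes tested there, the counts were 726 and 379, 588 and 547, and 794 and 891. With voom, 0 were higher in the ICM and 2 lower at D10. Over all genes, voom called 914 higher in the ICM and 977 lower at D10. With litter as a replicate block, 3 were lower at D10 (Mbnl1 and Snrpn added) and 1 in the interaction (Snrpa). At E4, 21 were higher. Over all genes the block called 959, 185 and 1200 in that order, beside 873, 127 and 1094 in the report's fit. The block, which rests on the litter pairing, ended no call between the tissues. It was not run on the changes over time, since litters differ between times. Each fit with 1 library left out was filtered anew, with 7085 to 7329 genes tested. Some calls were lost without a library outside their comparison. In the ICM 0 to 1 were higher and 6 to 11 lower, beside 839 to 1049 and 487 to 685 of all genes. The 6 came without replicate 4 of the E4 ICM or replicate 1 of the D10 ICM. In the TE 1 was higher and 3 to 7 lower, beside 674 to 855 and 604 to 781. The 3 came without replicate 2 of the E4 TE. At E4, 11 to 16 were higher and 1 to 3 lower, beside 860 to 1096 and 1000 to 1180. The 11 came without replicate 1, 3 or 4 of the E4 ICM or 3 or 5 of the E4 TE. The 1 lower came without replicate 4 of the E4 TE. At D10, 8 to 12 were higher and 1 to 2 lower, beside 786 to 1001 and 710 to 899. In the interaction 0 passed, beside 194 to 256 and 83 to 128. Differences that did not pass and changed sign were those of Mbnl2 over time in the TE (-0.06 with voom, -0.99 thinned, -0.11 to 0.31 with 1 library left out), of Mbnl3 over time in the TE (-0.01 by library totals, -0.06 to 0.17 with 1 library left out) and of Mbnl2 between the tissues at D10 (0.56 thinned, -0.39 to 0.07 with 1 library left out). The causes were not tested. At these depths, the simulation recovered 30% of 2-fold changes, put into genes drawn from all those tested. That share does not carry over to each member. How far a member that did not pass may still differ depends on its SE. At E4, ICM minus TE was -0.06 ± 0.17 for Hnrnpk and -0.19 ± 0.44 for Snrpc.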
